A study of Homo sapiens with 6 samples.

Results

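The double-stranded RNA sensing genes described here are 10 genes chosen as sensors of double-stranded RNA or as proteins that carry or limit their signal: DDX58, IFIH1, DHX58, TLR3, EIF2AK2, ZBP1, ADAR, MAVS, TBK1 and IRF3. They were found by their symbols, 1 row each among 19684 genes with an Ensembl identifier in the tables of the libraries, and again 1 row each in a table of group values. The libraries came from K1, an established papillary thyroid carcinoma cell line. In the first group (NC), 3 libraries, the cells were transfected with a negative control small interfering RNA (siRNA), and in the second (si-NEAT1_2), 3 libraries, with an siRNA against NEAT1_2, the long transcript of NEAT1. Both groups therefore received short double-stranded RNA by lipofection, and untransfected cells were not analysed here, so the comparison is between the transfection of 1 siRNA and that of another. No row carried the symbol NEAT1, in the libraries or in the group values, and its level in each library is therefore unknown. The labels number the libraries but do not say that they came from separate cultures, so p-values measure the spread between these libraries only. Total counts ranged from 22798631 to 27066025 per library. Among markers of thyroid epithelium, PAX8 lay between 113 and 169 FPKM (fragments scaled for gene length and library size), while NKX2-1 and TSHR were at or near 0, with at most 0.05 and 0.08 FPKM. TG and FOXE1 lay at 2.48 to 2.99 and 5.75 to 8.78 FPKM. The markers of fibroblasts, 4 genes, summed to 2.25 to 4.4 FPKM in NC and 2.29 to 4.27 FPKM in si-NEAT1_2, those of leukocytes, 5 genes, to at most 0.48 FPKM and those of endothelium, 3 genes, to at most 0.18 FPKM in any library.

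Double-stranded RNA in the cytosol is bound by the RIG-I-like receptors, which are RIG-I (encoded by DDX58), MDA5 (IFIH1) and LGP2 (DHX58), and in endosomes by TLR3. The first pair signals through the mitochondrial adaptor MAVS to the kinase TBK1, which phosphorylates the transcription factor IRF3, and IRF3 switches on type I and type III interferon genes. PKR (EIF2AK2) answers double-stranded RNA by arresting translation, ZBP1 binds nucleic acids in the Z form and can start necroptosis, and ADAR edits adenosines in double-stranded RNA and so keeps self RNA from being sensed. Several of these genes are themselves induced by interferon.

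K1 cells carried mRNA of 9 of the 10 genes. ZBP1 was the exception: its expected count was 1 in NC replicate 2 and in si-NEAT1_2 replicate 1 and 0 in the other libraries. At 3 counts, the limit that a count of 0 allows, the level per library would be at most 0.132 CPM (counts scaled to library size). That limit does not cover the libraries with a count of 1. Because FPKM values are scaled for gene length, they were used to order the genes. IRF3 stood highest, with a lowest, median and highest FPKM over the 6 libraries of 34.9, 41.7 and 62.4, and ADAR came next with 24.2, 38.5 and 42.7. The ranges of these genes overlap, and the range of ADAR lies above that of every gene that follows. EIF2AK2 (7.71, 16.2 and 23.6), MAVS (10.2, 12.5 and 13.6), TBK1 (4.92, 8.70 and 12.3) and DDX58 (4.89, 6.44 and 9.60) formed a chain in which each FPKM range overlaps the next. IFIH1 followed at 3.21, 3.92 and 4.88, just under the lowest value of DDX58. DHX58 (1.42, 2.0 and 2.87) and TLR3 (1.02, 1.93 and 2.67) were lowest, with FPKM ranges that overlap each other but not that of IFIH1. The signal carriers MAVS, TBK1 and IRF3 were thus more abundant than the RIG-I-like receptors in mean FPKM. Single libraries of TBK1 and DDX58 overlapped. EIF2AK2, also a sensor, had a mean FPKM of 15.6, above MAVS (12.3) and TBK1 (8.41).

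**Figure D1:**
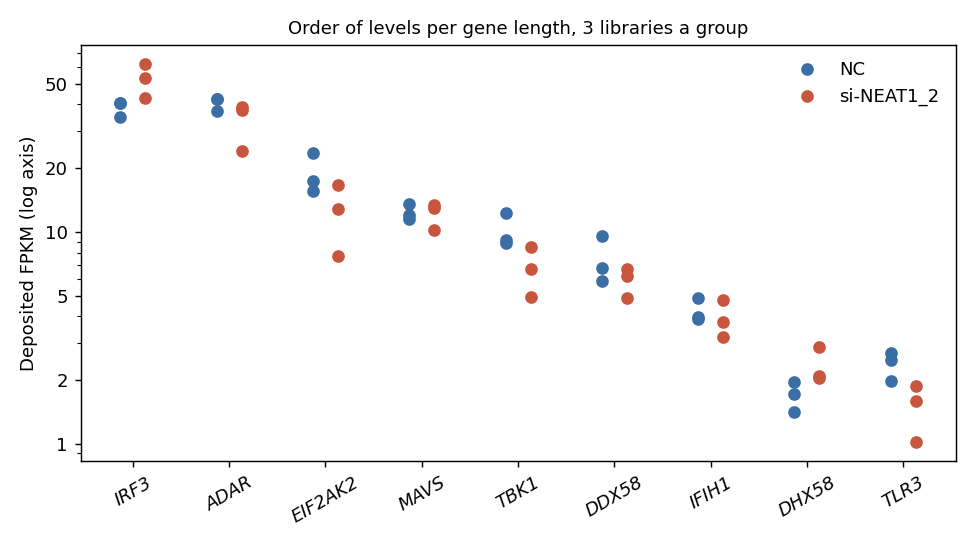
Deposited FPKM (log axis) of the 9 detected genes, ordered by their mean over the 6 libraries; each point is 1 library, NC in blue and si-NEAT1_2 in red. IRF3 and ADAR lie above 24 FPKM in every library, while DHX58 and TLR3 lie below 3 FPKM in every library.

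The question of the comparison was whether cells given the NEAT1_2 siRNA differed from cells given the control siRNA. A call required a difference of 2-fold or more with an adjusted p under 0.05 (quasi-likelihood test of edgeR, adjusted by Benjamini-Hochberg over the 12581 genes tested). No double-stranded RNA sensing gene was called, and neither was any other gene, so that the share called was 0.0% in either direction. The lowest adjusted p of any gene was 0.0675, and with DESeq2 18 genes were called higher and 44 lower, none of them a sensing gene. At an unadjusted p under 0.05, 2 of the 9 genes tested were higher in the si-NEAT1_2 libraries, DHX58 and IRF3, against 11.3% of all genes tested, and 1 was lower, TBK1, against 13.2% of all genes. In all this is 33.3% of the sensing genes against 24.5% of all genes tested. The median log2 fold change was -0.16 over the 9 genes and 0.01 over all genes tested. In bulk libraries, fewer cells expressing a gene and less RNA per cell cannot be told apart.

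Among the RIG-I-like receptors, DHX58 differed most. DHX58 (ENSG00000108771; chromosome 17, 42101404 to 42112733, minus strand, GRCh38) encodes LGP2, which lacks the signalling domains of the other receptors and modulates them. It measured 3.77, 3.02 and 3.53 CPM (scaled by TMM) in NC replicates 1 to 3 and 5.30, 4.82 and 6.19 CPM in si-NEAT1_2 replicates 1 to 3. Every si-NEAT1_2 library thus lay above every NC library. The mean was 3.44 ± 0.383 CPM in NC and 5.44 ± 0.692 CPM in si-NEAT1_2 (SD, n = 3 each), a 1.58-fold higher level with a 95% interval of 1.125 to 2.22 (adjusted p = 0.169, edgeR). These levels rest on expected counts of only 71 to 155 per library.

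DDX58 (ENSG00000107201; chromosome 9, 32455705 to 32526324, minus strand) encodes RIG-I, the receptor of short double-stranded RNA with a 5′ triphosphate. Its levels were 25.1, 40.2 and 29.2 CPM in NC replicates 1 to 3 and 26.8, 23.1 and 29.1 CPM in si-NEAT1_2 replicates 1 to 3, so that the groups overlap and NC replicate 2 stands above the rest. The log2 fold change was -0.26 (95% interval -0.67 to 0.16, adjusted p = 0.388, edgeR), and it was -0.04 without NC replicate 2. IFIH1 (ENSG00000115267; chromosome 2, 162267079 to 162318703, minus strand) encodes MDA5, the receptor of long double-stranded RNA. Its levels were 12.4, 15.1 and 12.6 CPM in NC and 11.9, 11.2 and 15.4 CPM in si-NEAT1_2, with 1 library high in each group. The log2 fold change of IFIH1 was -0.06 (95% interval -0.45 to 0.34, adjusted p = 0.856, edgeR), an interval that does not reach a 2-fold difference in either direction. The 3 receptors thus did not share a direction: their fitted log2 fold changes were 0.66, -0.26 and -0.06.

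TLR3 (ENSG00000164342; chromosome 4, 186069152 to 186088069, plus strand), the endosomal receptor, measured 5.93, 7.02 and 7.84 CPM in NC and 7.28, 3.69 and 6.95 CPM in si-NEAT1_2. The lowest level was in si-NEAT1_2 replicate 2 and the highest in NC replicate 3, the groups overlap, and the log2 fold change was -0.21 (95% interval -0.80 to 0.37, adjusted p = 0.621, edgeR). In the deposited FPKM values, which also depend on the transcript mix estimated in each library, TLR3 measured 1.97, 2.50 and 2.67 in NC and 1.59, 1.02 and 1.88 in si-NEAT1_2, so that here the groups do not overlap, as 15.5% of all genes tested did on the lower side. The count and FPKM of a gene together imply the length its FPKM was scaled by, which for TLR3 was 3039, 2895 and 2959 bases in NC and 4614, 3340 and 3682 bases in si-NEAT1_2. Every si-NEAT1_2 library implied a longer TLR3 transcript, as 5.24% of 10635 genes with enough counts did.

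EIF2AK2 (ENSG00000055332; chromosome 2, 37099210 to 37157065, minus strand), the kinase PKR, measured 71.3, 99.8 and 77.1 CPM in NC and 80.3, 42.8 and 63.6 CPM in si-NEAT1_2. The groups overlap through si-NEAT1_2 replicate 1, and the log2 fold change was -0.41 (95% interval -0.88 to 0.06, adjusted p = 0.247, edgeR). Without si-NEAT1_2 replicate 2 it was -0.21.

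ADAR (ENSG00000160710; chromosome 1, 154582057 to 154628013, minus strand), the RNA editing enzyme, measured 257, 244 and 239 CPM in NC and 241, 170 and 249.9 CPM in si-NEAT1_2. A single library, si-NEAT1_2 replicate 2, stood apart from 5 libraries within 239 to 257 CPM. The log2 fold change of ADAR was -0.16 (95% interval -0.50 to 0.17, adjusted p = 0.502, edgeR) and -0.01 without that library. ADAR has 23 annotated transcripts, among them an interferon-inducible and a constitutive form, which values per gene do not separate.

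Of the signal carriers, MAVS was the most even. MAVS (ENSG00000088888; chromosome 20, 3846799 to 3876123, plus strand) measured 158, 131 and 139.9 CPM in NC and 155, 129.7 and 152 CPM in si-NEAT1_2, with 143 ± 13.6 and 146 ± 13.9 CPM (SD, n = 3 each). Its log2 fold change was 0.03 with a 95% interval of -0.25 to 0.31 (adjusted p = 0.906, edgeR). TBK1 (ENSG00000183735; chromosome 12, 64451880 to 64502108, plus strand), the kinase that RIG-I, MDA5 and TLR3 signals converge on, measured 28.6, 38.7 and 29.7 CPM in NC and 26.6, 17.4 and 21.9 CPM in si-NEAT1_2. Every si-NEAT1_2 library lay below every NC library, the closest pair being 26.6 and 28.6 CPM. Expressed as a fold, TBK1 was at 0.679 of the NC level (95% interval 0.509 to 0.906, adjusted p = 0.169, edgeR).

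IRF3 (ENSG00000126456; chromosome 19, 49659569 to 49665875, minus strand), the transcription factor at the end of the pathway, measured 53.2, 46.6 and 55.1 CPM in NC and 58.0, 87.4 and 70.8 CPM in si-NEAT1_2. Every si-NEAT1_2 library lay above every NC library, with si-NEAT1_2 replicate 2 the highest. The level was 1.40-fold that of NC (95% interval 1.09 to 1.78, adjusted p = 0.169, edgeR). IRF3 shares 734 of its 3794 exonic bases with BCL2L12 on the opposite strand, and whether the counting used the strand is not given in the sources used here. BCL2L12 measured 38.5, 32.7 and 37.9 CPM in NC and 40.8, 67.5 and 46.7 CPM in si-NEAT1_2, the same order of libraries at the top, and without strand the reads of the shared bases cannot be told apart. TBK1 also overlaps an antisense gene, over 702 of its 4762 exonic bases. EIF2AK2 overlaps GPATCH11 and a processed pseudogene on the opposite strand, over 35 and 401 of its 10753 exonic bases.

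**Figure D2:**
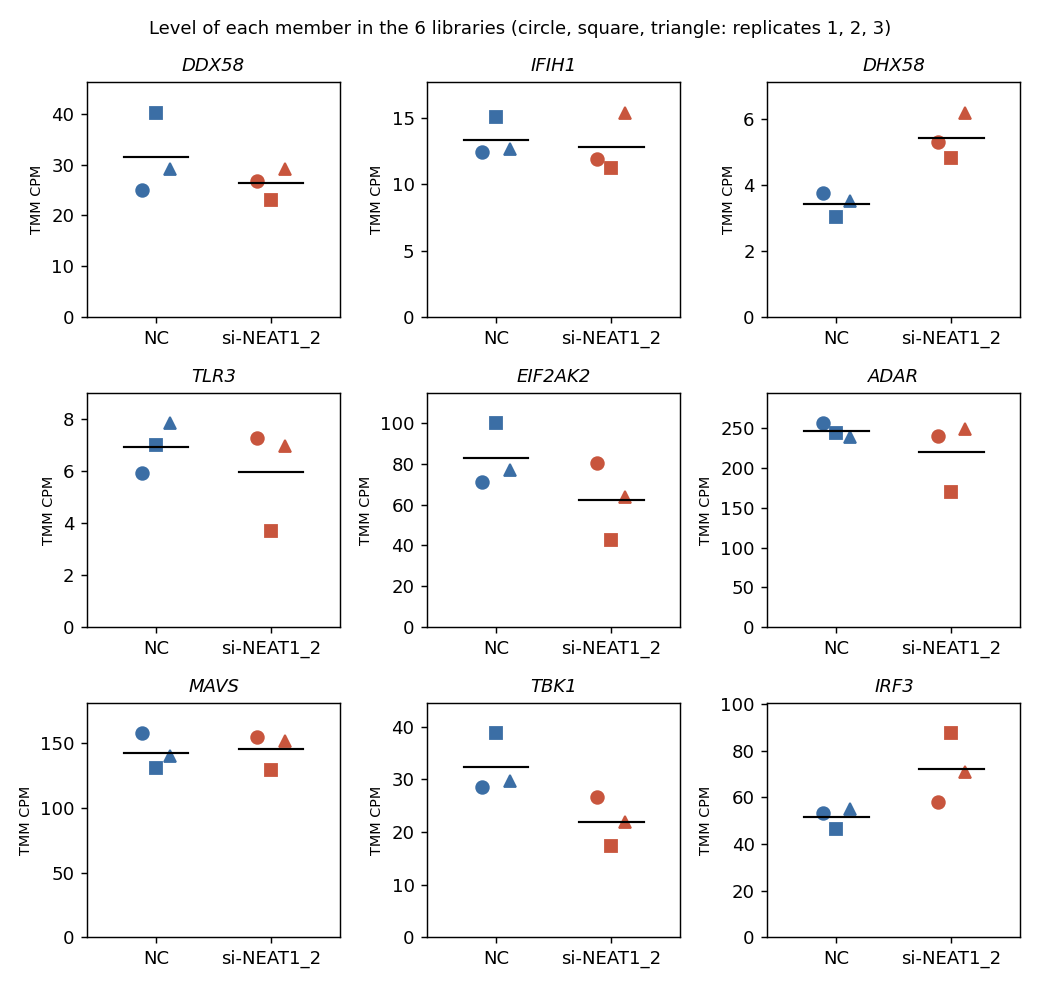
TMM-scaled CPM of the 9 detected genes in the 3 NC (blue) and 3 si-NEAT1_2 (red) libraries; circles, squares and triangles are replicates 1, 2 and 3 of each group and lines are group means. DHX58 and IRF3 lie higher and TBK1 lower in all 3 si-NEAT1_2 libraries, and the square of si-NEAT1_2 is the lowest point for 7 of the 9 genes.

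Without overlap between the groups, 2 of the 9 genes were higher (DHX58 and IRF3), where 15.7% of all genes tested did the same, and 1 was lower (TBK1), against 14.3% of all genes. For these 3 genes the two-sided exact permutation test gave p = 0.10, the smallest that 3 libraries against 3 allow. Groups without overlap always give that value, so it adds no support. For the other 6 genes tested the same test gave values from 0.30 to 1.0. Leaving out si-NEAT1_2 replicate 1 brought TBK1 (log2 fold change -0.72, adjusted p = 0.0441) and IRF3 (0.62, adjusted p = 0.0405, edgeR) past the adjusted threshold but not past a fold change of 2. For both genes the omitted library was the si-NEAT1_2 library nearest to NC (26.6 and 58.0 CPM), so leaving it out was bound to widen their differences. The share of all genes past the adjusted threshold alone in that fit was not counted, so passing it is not read as particular to these genes. In the other direction, the unadjusted p from edgeR was 0.0592 for TBK1 and 0.0501 for IRF3 without NC replicate 2, and 0.0532 for DHX58 without si-NEAT1_2 replicate 3. With the first si-NEAT1_2 replicate left out, 43 genes were called higher and 292 lower, against 0 with all 6 libraries, and the shares of all genes at an unadjusted p under 0.05 grew to 15.2% and 18.7%.

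The sensing genes differ in GC content, which was one of the properties corrected for. TLR3, EIF2AK2, TBK1, DDX58 and IFIH1 have GC contents of 37.6%, 38.7%, 39.3%, 40.5% and 43.3% in their longest annotated transcript, below the median of 48.0% over the genes tested, whereas DHX58 (58.2%) and IRF3 (59.0%) lie above it, with ADAR (49.3%) and MAVS (52.1%) between. In si-NEAT1_2 replicate 2, 7 of the 9 genes had their lowest CPM, against 33.6% of all genes tested, and IRF3 its highest. In NC replicate 2, DDX58, EIF2AK2 and TBK1 had their highest CPM, and DHX58 and IRF3 their lowest, where 30.7% of all genes had their highest and 30.7% their lowest level. The part of GC content in the group differences was not tested beyond the correction that follows.

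When trends with GC content and transcript length were removed from each library, the differences of the sensing genes became smaller or changed sign, except that of MAVS (0.19 in place of 0.03). EIF2AK2 then measured 68.8, 67.2 and 67.1 CPM in NC and 76.0, 69.5 and 73.25 CPM in si-NEAT1_2, a log2 fold change of 0.11 in place of -0.41. TBK1 kept a lower level in every si-NEAT1_2 library, with 28.5, 31.2 and 28.1 CPM in NC and 26.0, 20.15 and 25.5 CPM in si-NEAT1_2, and its log2 fold change was -0.29 (adjusted p = 0.273, edgeR). DHX58 stayed higher at 0.39 (adjusted p = 0.360) and IRF3 at 0.21 (adjusted p = 0.329, edgeR), and neither these nor EIF2AK2 overlapped between the groups, in a count added after seeing the data. The gaps were narrow, 4.019 against 4.005 CPM for DHX58 and 57.97 against 57.94 CPM for IRF3. Such higher and lower levels without overlap were seen for 9.91% and 12.4% of all genes after the correction. DDX58, IFIH1 and TLR3 moved to 0.06, 0.11 and 0.21. Of the 9 genes, TBK1 alone then had an unadjusted p under 0.05, where 8.20% of all genes were lower at that p. The correction used the longest annotated transcript, of 10042 bases for EIF2AK2, 6015 for TLR3 and 2874 for IRF3. The lengths implied by count and FPKM were shorter for these, 4125 to 5121, 2895 to 4614 and 1292 to 1377 bases. For DDX58, MAVS and TBK1 they were close to the annotated ones. The effect of this choice was not tested.

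**Figure D3:**
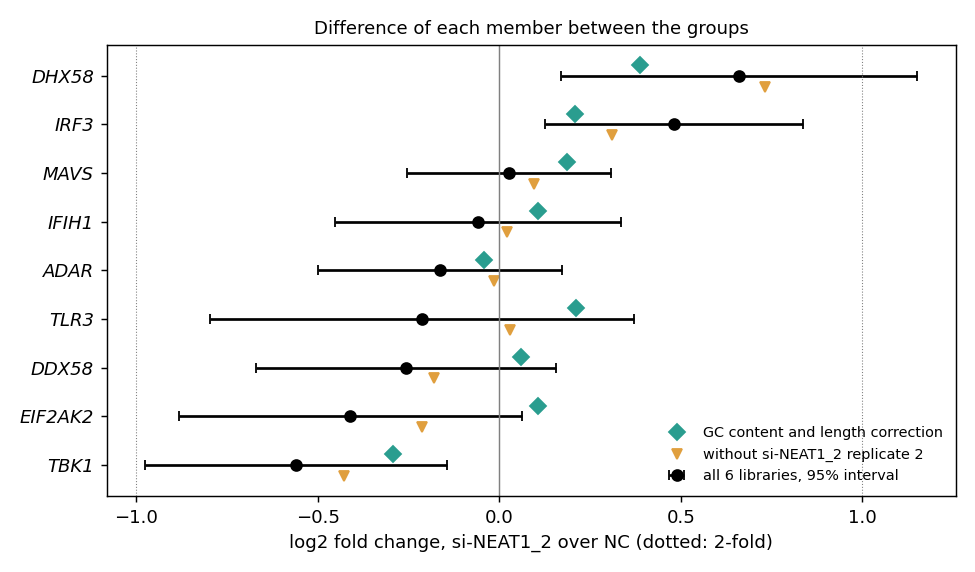
Log2 fold change (si-NEAT1_2 over NC) of each gene with all 6 libraries and its 95% interval (black), with trends of GC content and length removed (green) and without si-NEAT1_2 replicate 2 (orange); dotted lines mark a 2-fold difference. The intervals of DHX58, IRF3 and TBK1 lie to 1 side of 0, and EIF2AK2, DDX58, TLR3 and IFIH1 change sign with the correction.

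The labels carry an L code for each library whose meaning they do not give. NC replicates 2 and 3 and si-NEAT1_2 replicate 2 share code L2, and NC replicate 1 and si-NEAT1_2 replicate 3 share code L3. Only si-NEAT1_2 replicate 1 has code L4, so it enters no comparison within a code. TBK1 was lower within both codes, by log2 differences of -0.945 and -0.38, and DHX58 (0.50 and 0.65) and IRF3 (0.78 and 0.41) were higher within both. The groups of these genes do not overlap over all libraries, so their signs within both codes were fixed in advance. EIF2AK2 (-1.03 and -0.16), ADAR (-0.51 and -0.04) and MAVS (-0.06 and -0.05) were lower in both, MAVS against its log2 fold change of 0.03 over all libraries, whereas DDX58 (-0.56 and 0.21), IFIH1 (-0.28 and 0.30) and TLR3 (-0.92 and 0.21) had opposite signs. Differences within a code were not tested.

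To see what the genes share in sequence, RefSeq promoter windows (GRCh38.p14, 250 bases before to 50 after the start of transcription) were searched for the core of the interferon-stimulated response element, GAAANNGAAA, on both strands. Windows were held for 7 of the 10 genes, ADAR with 3 of them, and DHX58, ZBP1 and IRF3 had none. The core was found for 3 of these 7 genes, IFIH1, TLR3 and EIF2AK2, and in 3.57% of the 34796 windows searched. Left out of that search were duplicate sequences and a chromosome that holds none of the 10 genes, and its share counts windows, not genes. The windows of DDX58, ADAR, MAVS and TBK1 do not hold the letters of the core. A second motif, the gamma-activated site core TTCNNNGAA, was found in the window of TLR3 alone (2 positions) and in 7.67% of the 34796 windows. The sites are shown because they are what sets these 3 windows apart from those of the other 4 genes. Capitals mark the letters of the core, which reads as its reverse complement where it lies on the other strand. The upstream IFIH1 stretch (chromosome 2, 162318808 to 162318863, minus strand) holds a pair of overlapping cores that begin at positions -159 and -153 from the start, and the other IFIH1 stretch lies at 162318676 to 162318725. That of TLR3 lies on chromosome 4 at 186069132 to 186069181 (plus strand) and that of EIF2AK2 on chromosome 2 at 37156957 to 37157006 (minus strand), both with a core that spans the start of transcription.
IFIH1 upstream: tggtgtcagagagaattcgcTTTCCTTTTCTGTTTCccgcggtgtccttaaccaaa
IFIH1 near the start: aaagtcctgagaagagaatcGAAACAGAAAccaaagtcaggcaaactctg
TLR3: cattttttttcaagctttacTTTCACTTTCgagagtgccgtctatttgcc
EIF2AK2: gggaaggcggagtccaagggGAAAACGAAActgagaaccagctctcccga

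The log2 fold changes of the 3 genes with the core were -0.06 (IFIH1), -0.21 (TLR3) and -0.41 (EIF2AK2), each with an interval that includes 0. Such a match describes the letters only.

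The neighbours of these genes in the pathway were taken from 6 lists of 62 genes in all, of which 0 passed the call. The counts that follow stand against 11.3% of all genes higher and 13.2% lower at an unadjusted p under 0.05, and against 8.19% and 8.20% with the trends of GC content and length removed. Among 15 other binders of double-stranded RNA and oligoadenylate system genes, all tested, 4 were higher and 1 lower at an unadjusted p under 0.05, with a median log2 fold change of -0.10, and 3 and 0 after that removal. The lowest p belonged to OASL, an oligoadenylate synthetase-like protein that enhances RIG-I signalling, at 11.6, 10.97 and 18.8 CPM in NC and 23.5, 24.9 and 30.7 CPM in si-NEAT1_2. Every si-NEAT1_2 library was higher, with a log2 fold change of 0.93 (SE 0.217, adjusted p = 0.169, edgeR) and 0.83 after the removal. Of 15 adaptors, ubiquitin ligases and kinases, 14 were tested, 2 were higher and 2 lower at an unadjusted p under 0.05, and 0 and 1 after the removal. The lowest p was that of AZI2, an adaptor of TBK1, with a log2 fold change of -0.55 (adjusted p = 0.169, edgeR) and -0.17 after the removal.

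Of 8 inhibitors of the pathway, all tested, 1 was higher and 3 were lower at an unadjusted p under 0.05, and 1 and 0 with the trends of GC content and length removed. The lowest p was that of OTUD5, a deubiquitinase of TRAF3, at 47.2, 39.4 and 44.9 CPM in NC and 79.9, 85.6 and 90.4 CPM in si-NEAT1_2. Its log2 fold change of 0.96 (SE 0.128) had an adjusted p of 0.0675, the lowest of all genes tested with edgeR, and was 0.68 after that removal. Of 7 genes of interferon receptor signalling, 1 was higher and 1 lower, and 0 and 0 after the removal, the lowest p being that of IRF9, a DNA-binding factor of the interferon response, with a log2 fold change of 0.63 (adjusted p = 0.169, edgeR) and 0.31 after that removal. Of 7 genes around eIF2 alpha, 0 were higher and 2 lower, and 0 and 1 after the removal. EIF2AK4, the kinase of amino acid shortage, had the lowest p, with a log2 fold change of -0.39 (adjusted p = 0.171, edgeR) and -0.28 after the removal.

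The interferon genes were at or near 0 counts in both groups. IFNB1 had an expected count of 3 in NC replicate 3 and 0 in the other 5 libraries, IFNL1 and IFNL2 had at most 1 count in any library, and IFNL3 had 0 in all 6. Of the 10 genes listed as interferons and IRF3 targets, 4 passed the filter on low counts, and 1 of these was higher at an unadjusted p under 0.05, ISG15, a ubiquitin-like modifier, with a log2 fold change of 0.53 (adjusted p = 0.171, edgeR) and 0.10 with the trends of GC content and length removed. After that removal 2 others of the 4 were higher at an unadjusted p under 0.05, IFIT1 (0.36 in place of 0.10) and IFIT2 (0.34 in place of 0.16), both antiviral RNA-binding proteins. CCL5, a chemokine, had 2 to 12 counts per library and CXCL10 had 0 to 8 counts, too few to test. RIPK3, the kinase through which ZBP1 acts, had 0 counts in all 6 libraries.

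The authors' group table, which gives 1 value per group and no replicates, showed another pattern for the receptors. In it TLR3 was 4.29-fold lower with the NEAT1_2 siRNA (FPKM 1.13 and 0.263) and IFIH1 3.74-fold lower (1.55 and 0.413). DDX58 was 2.90-fold lower (2.45 and 0.847) and DHX58 2.55-fold lower (5.53 and 2.17). These 4 of the 9 detected genes were at least 2-fold lower for si-NEAT1_2, where 14.0% of the 11042 genes with an FPKM of at least 1 for either group were, and 0 of them were at least 2-fold higher, where 3.43% of all genes were. The median log2 ratio over all those genes was -0.22. EIF2AK2 was 1.73-fold lower (9.44 and 5.44) and ADAR 1.38-fold lower (25.4 and 18.4), while MAVS (11.2 and 12.1), TBK1 (6.78 and 8.91) and IRF3 (60.0 and 66.8) were higher for si-NEAT1_2 in this table. Some of these values rest on few counts, 85.3 and 24.3 for IFIH1 and 43.0 and 11.7 for TLR3. ZBP1 was listed at 0 in both columns.

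The group table and the libraries gave opposite directions for DHX58 and TBK1. The ratio of the mean FPKM of 3 libraries to that of the other 3 was 1.38 for DHX58 and 0.664 for TBK1, against 0.392 and 1.32 in the group table. MAVS also changed sides, with 0.982 and 1.08. For DDX58 and IFIH1 the libraries gave 0.800 and 0.926, against 0.345 and 0.267. The levels differed too: the NC value of the group table lay below all 3 NC libraries for 7 of the genes and above them for DHX58 and IRF3. Expected counts, which are not normalized, also differed, with an NC total of 17678761 in the group table and 22798631 to 27066025 per NC library. Over all genes with an FPKM of at least 1, 12.5% of the NC values and 19.2% of the si-NEAT1_2 values of the group table lay within the range of the 3 libraries, and of the 9 sensing genes 0 and 2 did. The mean of the NC libraries was 3.02 times the NC value of the group table for DDX58 and 0.307 times for DHX58. How the group table was made from libraries was not given in the sources used here, so it was used as a description.

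**Figure D4:**
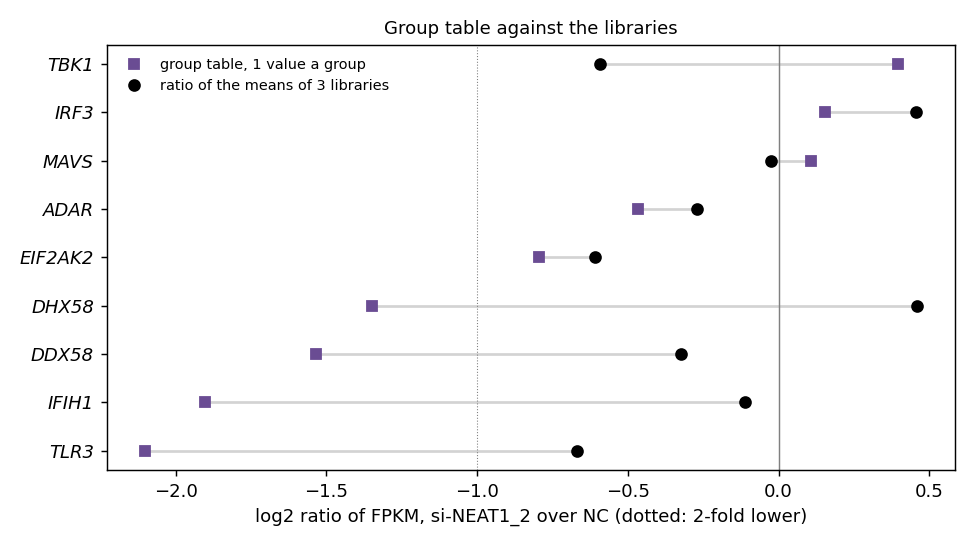
Log2 ratio of FPKM (si-NEAT1_2 over NC) of each gene in the authors' group table (purple squares, 1 value per group) and from the means of the 3 libraries per group (black circles); the dotted line marks a 2-fold lower value. TLR3, IFIH1, DDX58 and DHX58 lie left of that line in the group table only, and DHX58 and TBK1 lie on opposite sides of 0.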

How the data were processed

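mRNA-seq libraries of K1 cells, 3 NC and 3 si-NEAT1_2, were grouped by the genotype label. Per the study's methods, reads were mapped with TopHat2 and quantified with RSEM. The submitters' processing notes list fastp 0.18.0, Bowtie2 2.2.8, HISAT2, StringTie 1.3.1 and GRCh38, and which of these made the files was not settled. The deposited expected counts are not normalized, with 9.19% to 9.61% of values per library not whole. The deposited FPKM values were scaled by the authors for gene length and library size. All columns with values of a sample were mapped, 0 being left over.

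Expected counts were rounded to whole numbers. The 838 unannotated loci, at most 0.447% of the counts, were left out. Genes passing filterByExpr entered 1 quasi-likelihood fit (edgeR 4.0.16, R 4.3.3) with TMM scaling, a procedure tested on simulated data. Standard errors were derived from the F statistic. DESeq2 1.42.0 and limma 3.58.1 on log2(FPKM + 1) or log2(FPKM + 0.1) were alternatives, as were other scalings and filters, the L code as a covariate, a replicate block, the omission of each library and splines (5 degrees of freedom) of GC content and length. Annotation was GENCODE release 29. No replicate pair agreed within sampling noise. The named genes were the 10 members, the gene with the lowest p in each list and the 5 genes most like DDX58. Other genes given with values (BCL2L12, an overlapping gene, and IFIT1, IFIT2, IFIT3, OAS1, OAS2, OAS3, DDX60, IFNB1, IFNL1, IFNL2, IFNL3, CCL5, CXCL10 and RIPK3 of the lists) were chosen after their values were seen. Members and lists were chosen with earlier results of these data known.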

Additional observations from a re-analysis of the deposited data

How the results depend on the processing

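With all 6 libraries and edgeR, 0 genes were called in either direction. The counts of genes called higher and lower were 0 and 1 if TMM was left out, 0 and 1 in limma-trend on log2(FPKM + 0.1), 9 and 8 without a filter, 18 and 44 with DESeq2 (1709 genes had no adjusted p) and 1 and 3 with the GC content and length correction. Leaving out 1 library gave 0 to 43 higher and 0 to 292 lower, both highest without si-NEAT1_2 replicate 1, and 1 and 1 without si-NEAT1_2 replicate 2. Of the sensing genes, 2 were higher and 1 lower at an unadjusted p under 0.05. Without a filter and with the L code as a covariate 2 were lower (11.4% and 16.6% of all genes), with limma-trend on FPKM (either pseudocount) 1 was higher and 3 were lower (8.38% and 13.6% of all genes at the pseudocount of 1), and with the GC content and length correction 0 were higher and 1 lower (8.19% and 8.20%). Leaving out 1 library gave 1 to 2 higher and 0 to 2 lower. Without NC replicate 2 they were 1 and 0 (4.01% and 4.23% of all genes). Without si-NEAT1_2 replicate 3, 1 was higher (8.9% of all genes), and without si-NEAT1_2 replicate 1, 2 were lower (18.7%). Groups that did not overlap numbered 2 on the lower side in the deposited FPKM values, TBK1 and TLR3 (15.5% of all genes). In the correction combined with the omission of si-NEAT1_2 replicate 2, added after seeing the data, 2 genes were called higher and 3 lower. There 1 sensing gene was higher and 0 lower at an unadjusted p under 0.05 (5.64% and 7.49% of all genes). The cause of these changes was not tested.

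DHX58, IRF3 and TBK1 kept their direction under all 18 alternatives, but not their size. The log2 fold changes ranged from 0.3015 to 0.7313 for DHX58, 0.1052 to 0.6248 for IRF3 and -0.7193 to -0.1896 for TBK1. The smallest differences of IRF3 and TBK1 came from the GC content and length correction with si-NEAT1_2 replicate 2 left out. Because the groups of these genes did not overlap, the omission of a library could hardly have reversed them. The GC content and length correction reversed DDX58 (0.0588), IFIH1 (0.1075), TLR3 (0.2111) and EIF2AK2 (0.1081), and with si-NEAT1_2 replicate 2 also left out these were 0.0793, 0.162, 0.3546 and 0.1442, with ADAR at 0.0051. IFIH1 was reversed without NC replicate 2 (0.0376) or si-NEAT1_2 replicate 2 (0.0214), between -0.207 and 0.0376 over the omissions, and TLR3 without si-NEAT1_2 replicate 2 (0.0299), between -0.378 and 0.0299. MAVS, near 0 throughout, was reversed without TMM (-0.0274), with limma-trend (-0.0297 and -0.0323), with the L code (-0.0592) and without NC replicate 2, si-NEAT1_2 replicate 1 or si-NEAT1_2 replicate 3, between -0.0316 and 0.0951. The group table's log2 ratio of DHX58 was reversed in the means of the libraries (0.459). With the promoter window ended at the start of transcription, 1 gene, IFIH1, held the interferon response core.

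The labels number the replicates in both groups alike, and the study's methods speak of pairs of NC and si-NEAT1_2 cells without saying which libraries form one. Libraries of equal number did not deviate together from their groups (correlations -0.247, -0.329 and -0.021), and they were treated as unpaired. With a replicate block 0 genes were called, 2 sensing genes were higher and 1 lower at an unadjusted p under 0.05 (4.71% and 6.80% of all genes), and TBK1 was at -0.57. Together with the GC content and length correction the replicate block left 0 higher and 0 lower (4.51% and 5.22% of all genes), with DDX58 at 0.0616, IFIH1 at 0.0935, TLR3 at 0.1971 and EIF2AK2 at 0.1066.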

Other observations

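The deposited count and FPKM of a gene together imply the transcript length its FPKM was scaled by, which follows the transcript mix estimated in each library. For TLR3 the highest length was 1.59 times the lowest over the 6 libraries, a ratio above that of 94.6% of 10635 genes. MAVS, with a ratio of 1.0, and DDX58, with 1.01, were nearly constant. DHX58 implied 2621 bases in si-NEAT1_2 replicate 1 and 1942 to 2193 bases in the other libraries.

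In the group table, 3 of the 15 other binders of double-stranded RNA and oligoadenylate system genes were at least 2-fold lower with the NEAT1_2 siRNA (OAS1, OAS2 and DDX60), and so were 2 of the 3 interferon and IRF3 target genes with enough FPKM (IFIT1 and IFIT3), against 14.0% of all genes. Others were not: OAS3 was 1.67-fold and OASL 1.26-fold lower, and ISG15 was higher (64.2 and 69.5 FPKM). The genes that follow were chosen after their values were seen, for their low ratio in that table. IFIT1, an antiviral RNA-binding protein, was 10.5-fold lower with the NEAT1_2 siRNA in the group table (FPKM 2.0 and 0.190). In the libraries it measured 25.7, 29.8 and 33.8 CPM in NC and 30.5, 33.9 and 31.7 CPM in si-NEAT1_2, with a log2 fold change of 0.10 (adjusted p = 0.667, edgeR) and 0.36 with the trends of GC content and length removed (unadjusted p = 0.0266). OAS2, an oligoadenylate synthetase, was 5.03-fold lower for si-NEAT1_2 in the group table (1.84 and 0.367 FPKM). In the libraries every si-NEAT1_2 value of OAS2 was higher, with 4.54, 3.53 and 5.56 CPM in NC and 8.55, 5.83 and 8.86 CPM in si-NEAT1_2 (log2 fold change 0.77, adjusted p = 0.169, edgeR). OAS1 was 3.54-fold lower in the group table, whereas the libraries gave 0.74 on the log2 scale (adjusted p = 0.169, edgeR).

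Across the 6 libraries, the genes whose log2 CPM was most like that of DDX58 were ATMIN (Pearson's r 0.982), SESN1 (0.981), DCBLD1 (0.977), IFI16 (0.976) and LARP4B (0.975), among 9474 genes compared, of which 109 had an r of at least 0.9. The points share their libraries and the GC trend between them, so these values are a description. IFI16, a sensor of DNA, measured 70.6, 93.1 and 77.6 CPM in NC and 76.0, 64.2 and 74.8 CPM in si-NEAT1_2, with its highest value in NC replicate 2 and its lowest in si-NEAT1_2 replicate 2, as for DDX58.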
